A study of Drosophila melanogaster with 5 samples.

Results

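Of the 11982 fruit fly genes that the array measured with at least 1 probe set naming a single gene, 69 encode proteins of the mitochondrial ribosome. They were chosen by name alone, as every gene whose current symbol begins with mRpL or mRpS, after older symbols had been updated through the gene identifier. The set holds 44 large subunit (mRpL) genes and 25 small subunit (mRpS) genes, read by 71 probe sets. All 69 passed the filter on dim genes, which kept 7850 genes. The naming rule used no measured value, but the members and the other gene lists were chosen with earlier results of these data known. The Release 6 gene table lists 73 genes with such symbols. Of the other 4, mRpS10 and mRpL53 each share their probe set with a second gene, and mRpL34 and mRpL37 had no probe set named here.

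The study profiled eye-antennal imaginal discs, folded sheets of larval epithelium from which the head of the adult develops, dissected from third-instar Drosophila melanogaster larvae. Tumor clones were marked with GFP by MARCM, a mitotic recombination technique that makes labelled homozygous clones in an otherwise heterozygous animal. There were 5 groups with 1 array each: Sras mutant 1 tumors that also overexpress Ras, the same with Sras mutant 2, scrib mutant tumors that also overexpress Ras, tumors that only overexpress Ras, and WT control discs, which the labels call the 79E control. Overexpressed Ras is therefore shared by all groups except the WT control, and the scrib mutant was the study's positive control. The labels do not give the alleles, the driver of Ras, the share of marked cells in the RNA or the number of animals pooled, and MARCM tissue also contains unmarked cells unless these are removed.

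Mitochondria keep a small genome of their own that encodes core subunits of the respiratory chain, and a dedicated ribosome inside the organelle translates them. Its RNAs come from mitochondrial DNA, whereas all of its proteins are encoded in the nucleus, made in the cytosol and imported. Many descend from the proteins of the bacterial ribosome, and others exist only in mitochondria; loss of single members in flies slows growth and lowers respiration, as in the classical mutants tko and bonsai, whose products are small subunit proteins that do not carry the mRp prefix.

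Values are log2 signals, and a difference of 1 means 2-fold. With 1 array per group there is no replicate spread and no test, so each difference compares 2 arrays and not 2 conditions. Differences are read only for the same probe set between arrays, and members are not ranked by level. Levels across probe sets served for the filters, the choice of probe set and a set of genes in the members' range of levels. The arrays differed widely in other tissues: all 7 salivary gland markers, the 5 muscle markers kept of 8 and the 3 fat body markers kept of 6 were at least 2-fold lower in each of the 3 mutant tumor arrays than in the Ras array. The log2 of the summed salivary gland signal was 9.56 in Sras mutant 1, 12.37 in Sras mutant 2, 9.34 in the scrib mutant, 17.04 in Ras and 17.31 in the WT control. That of muscle was 9.53, 8.93, 8.84, 13.77 and 13.65 in the same order of arrays, and that of fat body 11.70, 13.24, 11.54, 14.98 and 15.17. The 6 hemocyte markers had medians nearer to Ras, at −0.19 in Sras mutant 1, −0.29 in Sras mutant 2 and −0.46 in the scrib mutant. In Sras mutant 2, however, 2 of the 6 were at least 2-fold lower than in Ras, down to −1.50, against 0 in Sras mutant 1 and 0 in the scrib mutant. Against the WT control their medians were −0.99 in Sras mutant 1, −1.15 in Sras mutant 2, −1.63 in the scrib mutant and −0.98 in Ras. The 8 eye-antennal disc markers had median differences from Ras of 1.27 in Sras mutant 1, 1.18 in Sras mutant 2 and −0.93 in the scrib mutant. There 4 of them lay below Ras, eya (−3.36), dac (−2.50), so (−2.27) and Dll (−2.14), and 4 above it, toy (1.01), Optix (0.79), ey (0.65) and ss (0.29). The mean gap between 3′ and 5′ control probe sets, a sign of RNA quality, was 0.930 in Sras mutant 1, 0.912 in Sras mutant 2, 0.882 in the scrib mutant, 1.35 in Ras and 0.954 in the WT control. In bulk tissue, fewer cells of a type and less RNA per cell cannot be told apart. The part that tissue makeup and RNA quality play in the differences below was not tested. The scrib transcript itself was at 11.30 in the scrib mutant array against 10.76 in Ras, and the Sras transcript at 9.19 and 9.05 in the Sras arrays against 9.40 in Ras; the lesions are not described, so neither value checks the labels.

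The mitochondrial ribosomal protein genes formed a narrow band that lay highest in the scrib mutant. The scrib mutant array gave the highest of the 5 values for 56 of the 69 genes, whereas it was the highest array for 35.7% of the 7850 genes kept. Ras was highest for 7 of them (14.7% of genes kept), Sras mutant 1 for 5 (16.7%), the WT control for 1 (18.8%) and Sras mutant 2 for 0 (14.1%). At the other end, Sras mutant 2 was the lowest array for 38 of the 69 genes, against 13.1% of genes kept, and the WT control for 21, against 31.6%. Ras was lowest for 8 (20.6% of genes kept), and Sras mutant 1 (7.35%) and the scrib mutant (27.5%) for 1 each. These counts of the lowest array rest on the scaling. The members' median of Sras mutant 2 minus the WT control was −0.06 here and 0.13 with arrays centred on their medians. It was −0.87 with arrays centred on eye and antennal identity genes. The median level of the set was 9.94 in Sras mutant 1, 9.86 in Sras mutant 2, 10.25 in the scrib mutant, 10.03 in Ras and 9.98 in the WT control. Most members moved little: the gap between a gene's highest and lowest array had a median of 0.42, against 0.68 over all genes kept. It ran from 0.15 for mRpL45, which in mammals lies by the mouth of the exit tunnel, to 1.499 for mRpL28, a homolog of bacterial L28. mRpS21 (1.15) and mRpL21 (1.06) also passed 2-fold. These gaps, too, rest on the scaling: centring on identity genes moved the median of Sras mutant 1 minus the scrib mutant to −1.81.

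**Figure D1:**
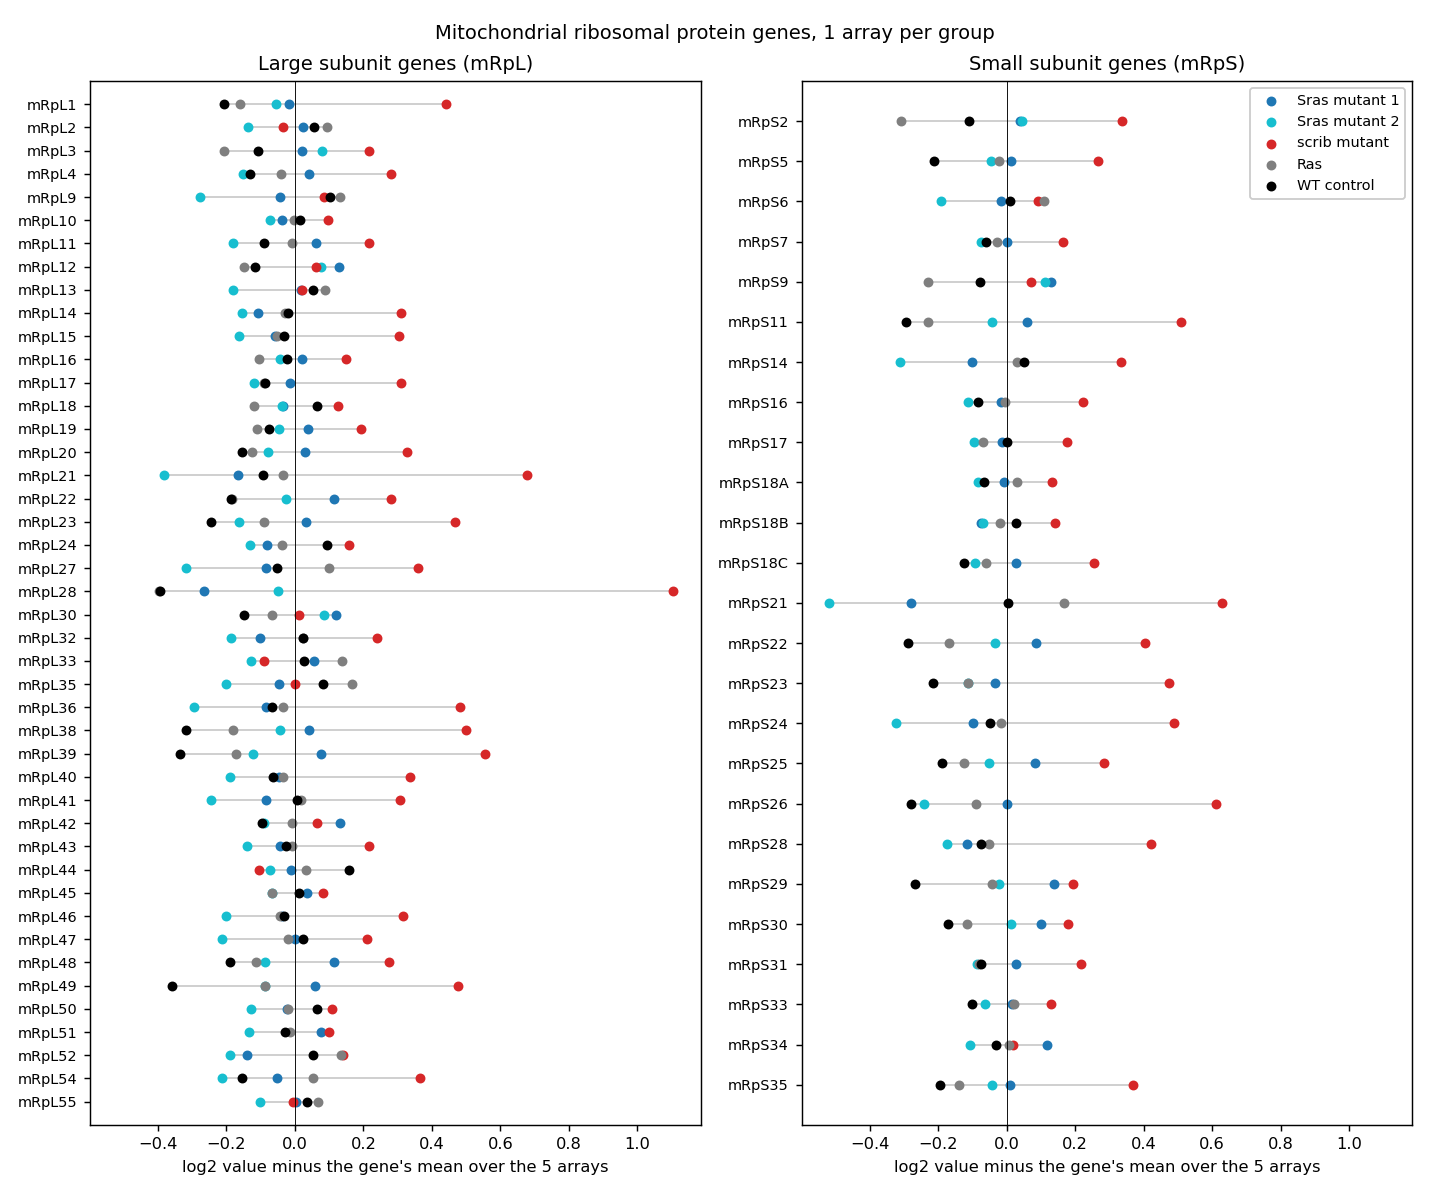
Level of each mitochondrial ribosomal protein gene in each array, as the log2 value minus that gene's mean over the 5 arrays; each point is 1 array and the grey line joins a gene's lowest and highest array. The scrib mutant points lie farthest right for 56 of 69 genes and the Sras mutant 2 points farthest left for 38. The count for Sras mutant 2 rests on the scaling.

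In the scrib mutant array 61 of the 69 genes lay above Ras, where 57.5% of genes kept did so. Their median difference was 0.29, or 1.23-fold, against 0.12 over all genes kept, and it stayed above 0 under each scaling tried. Its size depends on the scaling: the median was 0.46 with arrays centred on their medians and 1.28 with arrays centred on identity genes. Of the members, mRpL28 alone was at least 2-fold higher here, where 9.26% of genes kept were, and none was 2-fold lower, where 14.2% were. Under identity centring 60 of the 69 were 2-fold apart, where 60.5% of genes were and the median of all genes was itself 1.03. At 1.5-fold, 9 genes were higher, against 22.1% of genes kept, and 0 were lower, against 19.2%. The spread of the differences was 0.27 (SD over the 69 genes), against 1.25 over all genes kept and 1.05 over the 3281 genes kept whose mean level lay in the same range as the members'. In all, 30 of the 69 lay within 0.25 of Ras, where 30.6% of genes kept and 42.2% of those 3281 genes did. The share within 0.25 was thus near that of genes in the members' range of levels. Of the same 3281 genes, 498 were at least 1.5-fold higher and 386 at least 1.5-fold lower.

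**Figure D2:**
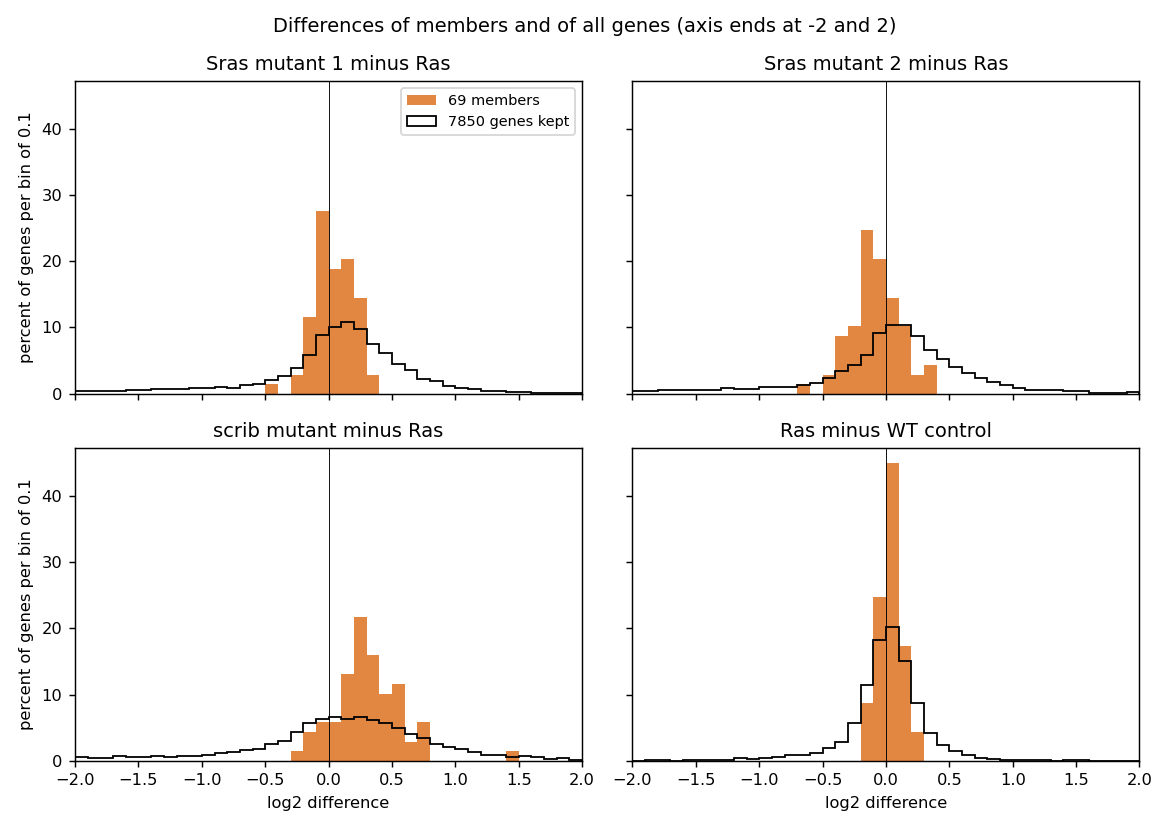
Distribution of log2 differences in 4 comparisons, as the percent of genes in bins 0.1 wide; filled bars are the 69 mitochondrial ribosomal protein genes and the outline is all 7850 genes kept. The members' histogram is narrower than that of all genes in each panel (SD 0.15, 0.19, 0.27 and 0.09) and its median is farthest from 0 in the scrib mutant panel, at 0.29; centring on identity genes moves the panels to −0.55, −0.70, 1.28 and −0.16.

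Among large subunit genes, mRpL28 stood apart from the others. It was at 10.57 in Sras mutant 1, 10.78 in Sras mutant 2, 11.94 in the scrib mutant, 10.44 in Ras and 10.44 in the WT control. The scrib mutant array was therefore 1.499 above Ras (2.83-fold), while the remaining 4 arrays ran from 10.44 to 10.78. The next highest large subunit difference from Ras was that of mRpL39, a large subunit protein found only in mitochondria, with 10.50, 10.30, 10.98, 10.25 and 10.09 in Sras mutant 1, Sras mutant 2, the scrib mutant, Ras and the WT control. mRpL21, of the bacterial L21 family, was at 9.66 and 9.44 in the Sras mutant 1 and 2 arrays, 10.50 in the scrib mutant, 9.79 in Ras and 9.73 in the WT control. It thus lay 0.71 above Ras in the scrib mutant, with both Sras arrays below Ras. mRpL38, another mitochondria-specific protein, was at 9.87, 9.78, 10.33, 9.64 and 9.51 in the same order of arrays, and was 0.68 above Ras in the scrib mutant. mRpL1, which forms the movable stalk beside the tRNA exit site, was 0.60 above Ras there.

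The large subunit genes at the low end in the scrib mutant were mRpL33 (−0.23 from Ras), mRpL35 (−0.17), mRpL44 (−0.14) and mRpL2 (−0.13). mRpL2 belongs to the family that shapes the peptidyl transferase centre, and mRpL44 has the fold of an RNase III enzyme in mammals. mRpL44 was the only member with its lowest value in the scrib mutant: 10.40, 10.34, 10.31, 10.44 and 10.57 in Sras mutant 1, Sras mutant 2, the scrib mutant, Ras and the WT control. In all, 37 of 44 large subunit genes lay above Ras in the scrib mutant, with a median of 0.26.

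Of the 25 small subunit genes, 24 lay above Ras in the scrib mutant, with a median of 0.30. mRpS11, a protein of the platform where messenger RNA leaves the subunit, was at 10.87 in Sras mutant 1, 10.77 in Sras mutant 2, 11.32 in the scrib mutant, 10.58 in Ras and 10.52 in the WT control, a difference from Ras of 0.74 in the scrib mutant. mRpS26, found only in mitochondria, was at 9.91, 9.66, 10.52, 9.82 and 9.63 in the same order, 0.70 above Ras. mRpS2 (0.64) and the mitochondria-specific mRpS23 (0.59) followed. These 4 genes had their highest value in the scrib mutant array. At the low end, mRpS6 was −0.02 from Ras and mRpS34 0.01, while mRpS18A and mRpS33 were 0.10 and 0.11 above. mRpS18A and mRpS30, here counted by name as small subunit genes, have products that sit in the large subunit of mammals.

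Set against the WT control, the scrib mutant array gave much the same values as against Ras. It lay above the WT control for 62 of the 69 genes, where 57.4% of genes kept did, with a median of 0.31. mRpL28 (1.497) was the only member at least 2-fold higher, where 10.5% of genes kept were, and none was 2-fold lower, where 14.8% were. At 1.5-fold, 12 were higher, against 24.5% of genes kept and 583 of the 3281 genes in the members' range of levels, a similar share to that of the members. The highest after mRpL28 were mRpL39 (0.89), mRpS26 (0.89), mRpL49 (0.84), mRpL38 (0.82) and mRpS11 (0.80), and mRpS22 (0.69) and mRpS23 (0.69) were next among small subunit genes. The lowest were mRpL44 (−0.26), mRpL33 (−0.12), mRpL2 (−0.09) and mRpL35 (−0.08), and all 25 small subunit genes lay above the WT control, from mRpS34 at 0.05, mRpS6 at 0.08, mRpS18B at 0.11 and mRpS9 at 0.15 upward. The count at this fold depends on the scaling: with each array centred on its median, 7 members were at least 2-fold higher, where 12% of genes were.

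In the Sras mutants the set lay close to Ras. The median difference from Ras was 0.06 in Sras mutant 1 and −0.09 in Sras mutant 2, values whose signs are set by the scaling: centring each array on its median gave 0.18 and 0.02, and centring on eye and antennal identity genes gave −0.55 and −0.70. No member was 2-fold apart from Ras in either array. Across all genes kept, 4.04% were 2-fold higher and 9.77% lower in Sras mutant 1, and 4.96% higher and 9.95% lower in Sras mutant 2. Of the members, 61 of 69 were within 0.25 of Ras in Sras mutant 1 and 51 of 69 in Sras mutant 2, where 42.7% of genes kept were within 0.25 in each. The spread of the differences was 0.15 in Sras mutant 1 and 0.19 in Sras mutant 2, against 0.82 and 0.78 over genes of the members' range of levels. Relative to the median of all genes kept, the members' median was −0.06 in Sras mutant 1 and −0.17 in Sras mutant 2. In Sras mutant 2 this gap stayed below 0 under each scaling, between −0.17 and −0.11, whereas in Sras mutant 1 it lay between −0.06 and 0.01.

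Counted gene by gene, 22 of the 69 lay above Ras in both Sras arrays, where 56.1% of genes kept did, and 30 lay below Ras in both, where 35.8% did. A further 16 lay on opposite sides of Ras in the 2 Sras arrays, where 8.03% of genes kept did. These counts move with the scaling, as members near 0 change sign with a small shift of a whole array. Since both comparisons use the same Ras array, a high or low value in that 1 array enters both.

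The small subunit gene mRpS21 had the lowest values of the set against Ras in the Sras mutants. Its product belongs to the family of bacterial S21, a protein that in bacteria takes part in the start of translation. It was at 11.13 in Sras mutant 1 and 10.89 in Sras mutant 2, against 11.58 in Ras, with 12.04 in the scrib mutant and 11.41 in the WT control. The differences from Ras were −0.44 and −0.68, and Sras mutant 2 passed 1.5-fold lower, the only member to do so (14.7% of genes kept). The scrib mutant lay on the other side of Ras, 0.46 above it. After mRpS21 came mRpS14 (−0.13 in Sras mutant 1 and −0.34 in Sras mutant 2), mRpS6 (−0.13 and −0.30) and mRpS24 (−0.08 and −0.31). Among large subunit genes the lowest against Ras were mRpL52 (−0.27 in Sras mutant 1 and −0.32 in Sras mutant 2), mRpL35 (−0.21 and −0.37), mRpL27 (−0.18 and −0.42) and mRpL9 (−0.18 and −0.41). mRpL27 belongs to the bacterial family that reaches into the peptidyl transferase centre.

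The highest small subunit genes against Ras in the Sras mutants were mRpS2, mRpS9, mRpS11 and mRpS22. mRpS2 was at 9.41 and 9.42 in the Sras mutant 1 and 2 arrays, against 9.06 in Ras, with 9.71 in the scrib mutant and 9.26 in the WT control. Ras was thus the lowest array for mRpS2, and the same held for mRpS9, whose bacterial counterpart touches the tRNA in the peptidyl site: 10.60 and 10.58 in the Sras arrays, against 10.24 in Ras, with 10.54 in the scrib mutant and 10.40 in the WT control. mRpS11 was 0.29 and 0.19 above Ras in Sras mutants 1 and 2, and mRpS22 0.25 and 0.13. In the large subunit, mRpL3 was 0.23 and 0.29 above Ras, and mRpL12, the stalk protein that receives translation factors, 0.28 and 0.23. mRpL22, which lines the exit tunnel, was 0.30 and 0.16 above Ras, and mRpL30 was 0.19 and 0.15 above.

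Against the WT control, the Sras arrays gave a median of 0.07 in Sras mutant 1 and −0.06 in Sras mutant 2, with signs that again depend on the scaling (0.26 and 0.13 after centring on array medians, −0.75 and −0.87 after centring on identity genes). No member was 2-fold apart from the WT control, where 5.75% of genes kept were higher and 10.5% lower in Sras mutant 1, and 6.6% higher and 10.8% lower in Sras mutant 2. mRpL38 (0.36 and 0.28), mRpL49 (0.42 and 0.27), mRpL30 (0.27 and 0.23) and mRpL39 (0.41 and 0.21) were the highest large subunit genes in Sras mutants 1 and 2. In the small subunit the highest were mRpS22 (0.37 and 0.25), mRpS11 (0.35 and 0.25), mRpS9 (0.21 and 0.19) and mRpS29 (0.41 and 0.25), whose mammalian counterpart DAP3 binds GTP and is also known for a role in cell death. The lowest were mRpS21 (−0.28 and −0.52), mRpS14 (−0.15 and −0.36), mRpS18B (−0.10 and −0.09) and mRpS24 (−0.05 and −0.28), with mRpL52 (−0.19 and −0.24), mRpL24 (−0.18 and −0.23), mRpL44 (−0.17 and −0.23) and mRpL9 (−0.15 and −0.38).

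Set directly against the scrib mutant, nearly the whole set was lower in the Sras mutants. Of the 69 genes, 60 lay below the scrib mutant in both Sras arrays, where 46.1% of genes kept did, and 4 lay above it in both, where 43.1% did. The median was −0.23 in Sras mutant 1 and −0.34 in Sras mutant 2, against 0.00 and −0.03 over all genes kept, and it was below 0 under each scaling. Centring on identity genes moved it to −1.81 and −1.94, with all 69 members 2-fold lower in each Sras array. Of the 8579 genes kept under that scaling, 7462 were 2-fold lower in Sras mutant 1 and 7466 in Sras mutant 2. At least 2-fold lower were 1 gene in Sras mutant 1, mRpL28, where 4.85% of genes kept were, and 3 in Sras mutant 2, mRpL28, mRpS21 and mRpL21, where 4.28% were. None was 2-fold higher, where 8.03% of genes kept were in Sras mutant 1 and 8.1% in Sras mutant 2. At 1.5-fold, 5 members were lower in Sras mutant 1 and 12 in Sras mutant 2, against 10.9% and 11.5% of genes kept.

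The genes with the lowest values against the scrib mutant came from both subunits. mRpL28 was −1.37 in Sras mutant 1 and −1.15 in Sras mutant 2, mRpS21 −0.91 and −1.15, and mRpL21 −0.84 and −1.06. mRpS26 (−0.61 and −0.85), mRpS24 (−0.59 and −0.81), mRpL36 (−0.57 and −0.78), mRpS28 (−0.54 and −0.59) and mRpL39 (−0.48 and −0.68) were the other 5 among the 4 lowest of each subunit. mRpS24 is the mitochondrial member of the bacterial S3 family, which lines the entry of the messenger RNA channel. The 4 genes above the scrib mutant in both Sras arrays were mRpL30 (0.11 in Sras mutant 1 and 0.07 in Sras mutant 2), mRpL44 (0.09 and 0.03), mRpL12 (0.07 and 0.01) and mRpS9 (0.06 and 0.04). mRpL33 (0.15 and −0.04) and mRpS34 (0.10 and −0.12) were split, and mRpS30 (−0.08 and −0.17) and mRpS33 (−0.11 and −0.19) lay slightly below the scrib mutant.

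Placed on either side of Ras, 22 of the 69 genes were above Ras in the scrib mutant and below it in both Sras mutants, a pattern held by 7.49% of genes kept. mRpS21, mRpL21, mRpL36, mRpS24 and mRpL27 are examples. Another 22 were above Ras in all 3 mutant arrays, as were 45.8% of genes kept, and 8 were below Ras in all 3, as were 28.3%. These counts, too, rest on the scaling, since centring on array medians moved the number above Ras in Sras mutant 2 to 39, against 22 here (58.7% of genes kept).

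**Figure D3:**
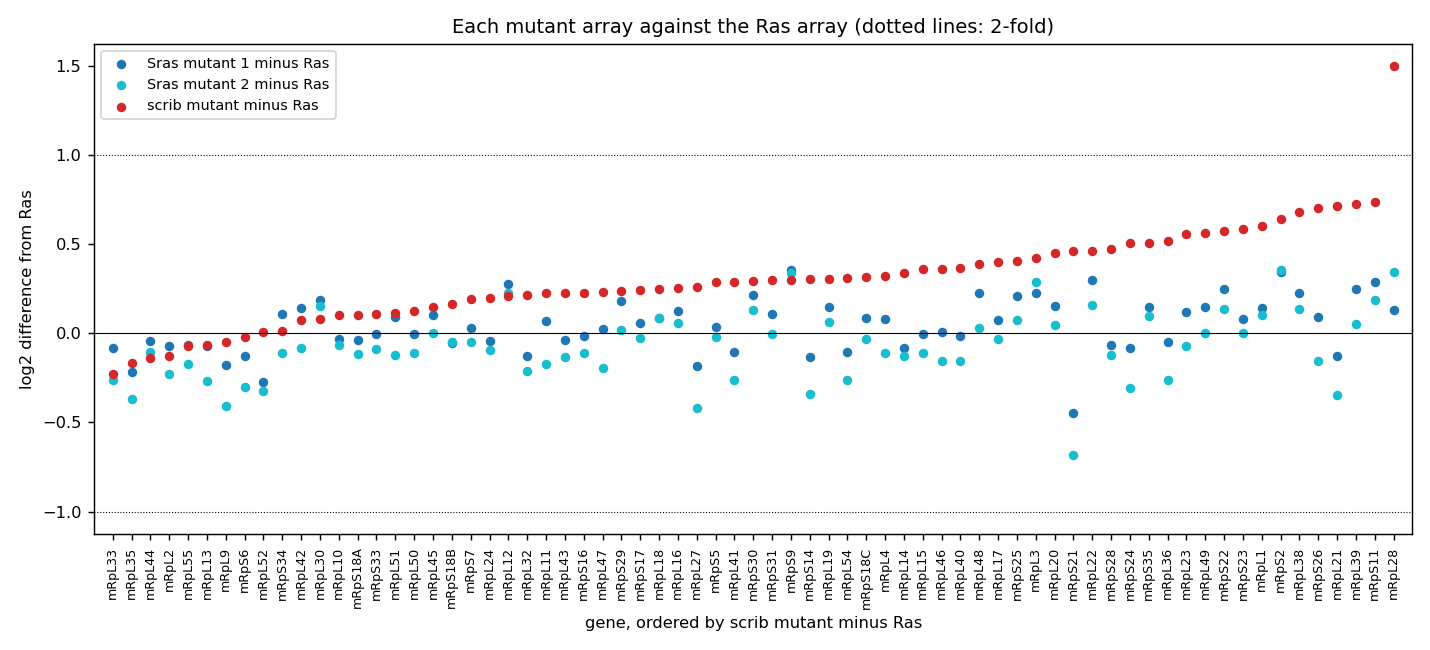
Log2 difference from the Ras array for each of the 69 genes in Sras mutant 1, Sras mutant 2 and the scrib mutant, ordered by the scrib mutant; dotted lines mark 2-fold. Sras mutants 1 and 2 run together near 0, with mRpS21 lowest (−0.44 and −0.68), while the scrib mutant is above 0 for 61 genes and passes the upper line for mRpL28 at 1.499; centring on array medians moves Sras mutant 1 to a median of 0.18.

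The Sras mutants were close to each other. All 69 genes were within 0.25 between Sras mutant 1 and Sras mutant 2, where 87.1% of genes kept were, and the spread of the differences was 0.083. Sras mutant 1 was nevertheless above Sras mutant 2 for 65 of 69 genes, where 58.7% of genes kept were, with a median of 0.11 that was above 0 under each scaling. This direction was not particular to the set. Sras mutant 1 was also above Sras mutant 2 for 47 of 49 respiratory chain genes (median 0.11) and 11 of 12 translation factors (0.07). The same held for 10 of 11 mitochondrial DNA genes (0.10) and 13 of 16 tRNA synthetases (0.09). Import and chaperone genes, with 12 of 17 above (0.02), and cytosolic ribosomal proteins, with 23 of 37 (0.02), showed it less. None of the members was 2-fold higher (0.178% of genes kept) or lower (0.497%). The 4 genes lower in Sras mutant 1 were mRpL28 (−0.22), mRpL3 (−0.06), mRpS18B (−0.01) and mRpS2 (−0.01). mRpL28 was thus the one member of this narrow set with a sizeable value against the common direction. The highest were mRpS26 (0.24), mRpL11 (0.24), mRpS21 (0.24), mRpL27 (0.23), mRpL9 (0.23), mRpS24 (0.22), mRpS34 (0.22) and mRpL42 (0.22). The lowest of the rest were mRpL18 (0.00) and mRpL10 (0.04) in the large subunit and mRpS9 (0.02) and mRpS35 (0.05) in the small.

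Ras and WT control arrays were nearly alike for this set. The median difference was 0.03 with a spread of 0.09, against 0.02 and 0.35 over all genes kept, and centring on identity genes turned the median to −0.16. In all, 68 of 69 genes were within 0.25, where 73.4% of genes kept were. None was 2-fold higher (0.701% of genes kept) or lower (1.36%). The exception to the 0.25 limit was mRpL49, at 10.45 in Ras against 10.18 in the WT control. mRpS29 (0.22), mRpL54 (0.21), mRpS26 (0.19), mRpS5 (0.19), mRpS21 (0.16), mRpL39 (0.16) and mRpL23 (0.16) were the next highest. mRpS2 (−0.20), mRpL18 (−0.19), mRpS9 (−0.15), mRpL24 (−0.13), mRpL44 (−0.13) and mRpL3 (−0.10) were the lowest, with mRpS17 (−0.07) and mRpS18B (−0.05) next in the small subunit. For mRpS2, mRpS9 and mRpL3 the low Ras value is shared by the comparison of the Sras mutants with Ras above.

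Grouped by role, each class of member lay above Ras in the scrib mutant. For comparison, 57.5% of genes kept lay above Ras there, with a median of 0.12. Against Ras, the 28 large subunit genes with bacterial relatives had a median of 0.26 (23 above Ras) and the 16 specific to mitochondria 0.26 (14 above). The 15 small subunit genes with bacterial relatives had 0.30 (14 above) and the 10 specific to mitochondria 0.35 (10 above). The 4 genes of the stalks, mRpL1, mRpL10, mRpL11 and mRpL12, had a median of 0.22, and the 5 genes around the exit tunnel, mRpL22, mRpL23, mRpL24, mRpL45 and mRpL47, one of 0.23. All of these medians stayed above 0 under each scaling. In Sras mutant 1 the same 6 classes, in that order, had medians of 0.05, 0.00, −0.01, 0.13, 0.11 and 0.10, and in Sras mutant 2 −0.10, −0.11, −0.05, 0.01, 0.02 and −0.07. All 6 lay below 0 in both Sras arrays once arrays were centred on identity genes (between −0.75 and −0.47), so no direction is given for them.

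Other nuclear genes that mitochondrial translation draws on were also above Ras in the scrib mutant. Of 12 translation factors and related genes kept of 14 listed, 12 lay above Ras in the scrib mutant, with a median of 0.61, where 57.5% of all genes kept lay above Ras with a median of 0.12. They include tko, the fly gene for the small subunit protein S12, which was at 11.19 in Sras mutant 1, 11.004 in Sras mutant 2, 11.98 in the scrib mutant, 11.04 in Ras and 10.98 in the WT control. tko, 0.95 above Ras in the scrib mutant, thus had 1 high array out of 5, as mRpL28 did. bonsai, the fly gene for S15, was 0.23 above Ras. mRRF2, a ribosome recycling factor, was at 7.56 in the scrib mutant and, at 6.33 in Ras, under the filter value of 6.36. Of the genes above that value in Ras, the initiation factor mIF3 (0.96) was the highest, and the lowest were mRRF1 at 0.03, mEFTs at 0.05 and bonsai. Of 16 mitochondrial aminoacyl-tRNA synthetase genes kept of 17, which charge the tRNAs, 15 lay above Ras in the scrib mutant (57.5% of genes kept) with a median of 0.57 (0.34 in the values as deposited). Slimp (0.94), GluRS-m (0.80) and ArgRS-m (0.73) were the highest, and PheRS-m (−0.08), AspRS-m (0.02) and AsnRS-m (0.16) the lowest. LysRS, in that list, also serves the cytosol.

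The 11 genes kept of 13 for mitochondrial DNA replication and expression had a median of 0.76 in the scrib mutant, with 11 above Ras (57.5% of genes kept) and 4 at least 2-fold higher (9.26%). PolG1, the catalytic subunit of the mitochondrial DNA polymerase, was at 7.82 in Sras mutant 1, 7.81 in Sras mutant 2, 8.49 in the scrib mutant, 6.999 in Ras and 6.72 in the WT control. mtDNA-helicase (1.39), the protease Lon (1.20) and bsf (1.02), an RNA-binding protein of mitochondrial transcripts, were the others, while TFAM, which packages mitochondrial DNA, was 0.24 above Ras and mtSSB, its single-strand binding protein, 0.37. Of the 17 import and chaperone genes kept of 23, 12 lay above Ras (57.5% of genes kept), with a median of 0.39. The chaperonin Hsp60A was highest at 1.13, then Hsc70-5 (0.79) and Roe1 (0.72), and mge (−0.33), ClpX (−0.16) and Tim23 (−0.13) were lowest. The median of these 4 lists against Ras was above 0 in the scrib mutant under each scaling.

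In the Sras mutants the medians of those 4 lists lay farther above Ras than those of the ribosomal proteins (0.06 and −0.09), although centring on identity genes put all 4 below 0. Medians in Sras mutants 1 and 2 were 0.22 and 0.22 for translation factors, 0.27 and 0.14 for tRNA synthetases, 0.49 and 0.38 for mitochondrial DNA genes, and 0.27 and 0.26 for import and chaperones. Lon (1.09 and 1.28) and mtDNA-helicase (1.05 and 0.92) were the highest. SLIRP2, an RNA-binding protein family member, was at 7.40 and 7.30 in Sras mutants 1 and 2, against 7.92 in Ras, with 8.68 in the scrib mutant and 7.80 in the WT control. Its order of arrays was that of mRpS21: Sras mutant 2 lowest, then Sras mutant 1, the WT control, Ras and the scrib mutant highest.

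The products of mitochondrial translation join nuclear-encoded respiratory chain subunits, and those genes lay nearer to Ras in the scrib mutant than the ribosomal proteins did. They were picked by symbol among genes with a probe set naming a single gene, so 66 counts only such genes. The 49 kept of 66 had medians against Ras of −0.01 in Sras mutant 1, −0.13 in Sras mutant 2 and −0.08 in the scrib mutant. Centring on array medians gave 0.03, −0.08 and 0.04, and centring on identity genes −0.70, −0.81 and 0.86. COX7AL (7.19 in the scrib mutant and 4.18 in Ras) and ND-51L2 (6.74 and 5.87), paralogs of main subunits, were under the filter value in Ras and kept only through the scrib mutant array, so no exact difference is read from them. ATPsynepsilonL (1.20) was the highest of the others in the scrib mutant, and ND-ASHI (−0.47), ND-B17.2 (−0.38) and UQCR-14 (−0.29) were lowest. ND-B14.5A was the lowest in the Sras mutants, at 10.29 and 10.05, against 10.97 in Ras. The 37 cytosolic ribosomal protein genes kept of 41, picked by symbol in the same way, had medians of 0.05 in Sras mutant 1, 0.02 in Sras mutant 2 and 0.03 in the scrib mutant. RpL22-like, at 7.39 in the scrib mutant and 5.89 in Ras, was likewise kept only through the scrib mutant array. Centring on identity genes gave −0.59, −0.61 and 0.99. Cytosolic ribosomal protein probe sets lie near the top of the scale, where differences are compressed on such arrays.

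**Figure D4:**
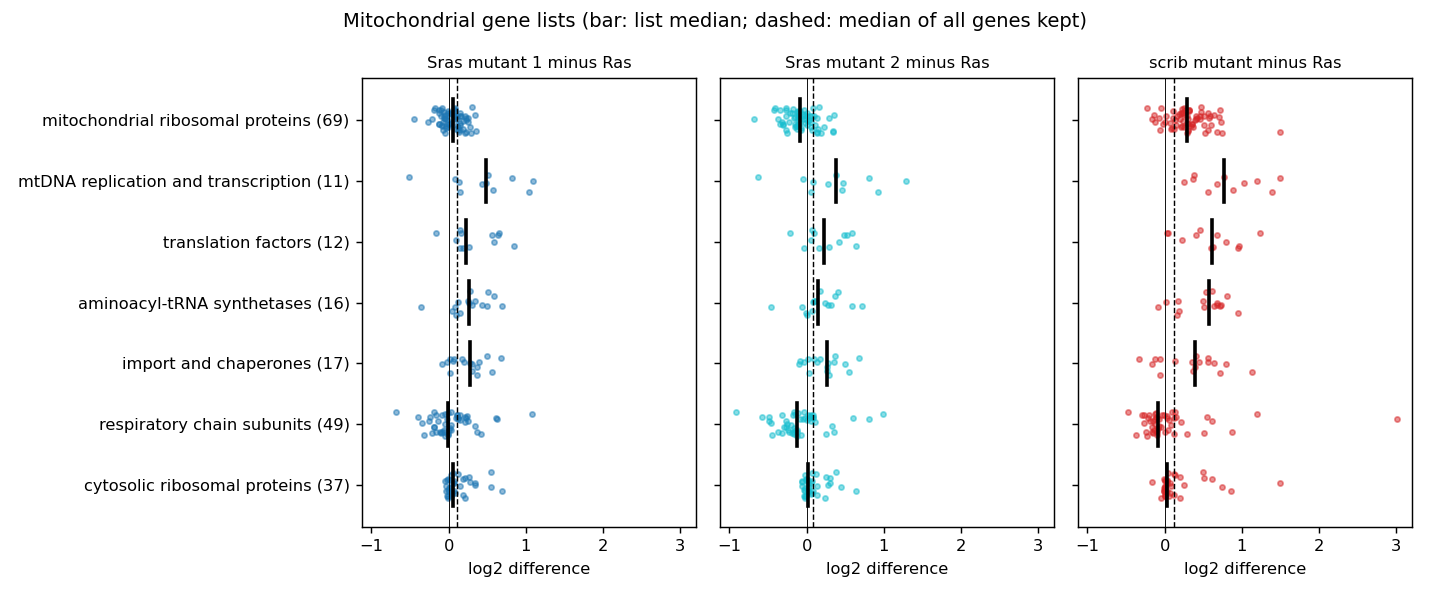
Log2 difference from the Ras array for mitochondrial ribosomal proteins and 6 other gene lists in Sras mutant 1, Sras mutant 2 and the scrib mutant; each point is 1 gene, the bar is the list's median, the dashed line is the median of all genes kept, and the number kept stands in brackets. In the scrib mutant panel the ribosomal proteins (0.29) lie between the respiratory chain (−0.08, or 0.04 after centring on array medians) and mitochondrial DNA genes (0.76); the highest point, COX7AL, was under the filter value in Ras.

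Genes known to govern mitochondrial content and ribosome production in flies did not share a direction. The 11 regulators kept of 14 had medians against Ras of 0.11 in Sras mutant 1, 0.03 in Sras mutant 2 and 0.06 in the scrib mutant, turning to −0.51, −0.58 and 1.02 after centring on identity genes. S6k, the kinase downstream of mTor, was at 9.84 in Sras mutant 1, 10.13 in Sras mutant 2, 10.74 in the scrib mutant, 9.21 in Ras and 9.37 in the WT control. foxo was 0.57 and 0.54 above Ras in Sras mutants 1 and 2 and 1.18 in the scrib mutant, and Ets97D, the fly relative of the mammalian nuclear respiratory factor GABPA, 0.36, 0.29 and 0.55. ewg, the relative of the nuclear respiratory factor NRF1, lay the other way, at 9.13 in Sras mutant 1, 9.07 in Sras mutant 2 and 7.53 in the scrib mutant, against 9.80 in Ras. ewg is also highly expressed in neurons and muscle, whose markers were lower in the same arrays (medians of −0.67, −0.79 and −2.52 for neurons and glia, and of −4.27, −4.74 and −4.86 for muscle), and the part of those tissues in its value was not tested. Sirt1 (−0.12), mTor (−0.16) and Mnt (−0.18) were close to Ras in the scrib mutant, and Myc, srl and Rheb had no probe set named here.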

How the data were processed

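The authors deposited 1 table of log2 values, 18952 probe sets by 5 arrays, 1 array per group; of its making (background, normalization, probe summary), nothing is stated by the labels used here. Values ran from 3.32 to 14.89, and no scanner files were used. Array medians differed by up to 0.153, so arrays were quantile normalized, which removes any shift of most genes. Of the probe sets, 13647 named 1 gene, 402 several, 4720 none here, and 183 were controls; symbols were updated through a Release 6 gene table (13544 matched). The probe set with the highest mean stood for a gene, and genes were kept where the highest of 5 values reached the 40th percentile (6.36). The members and lists were chosen with earlier results of these data known. Differences are single arrays minus single arrays: no test, p-value or error was computed, and the number of arrays limits the precision. The text names, per comparison and subunit, the 4 highest and 4 lowest members (both Sras arrays jointly, by the value nearer 0), members 2-fold apart, and up to 3 highest and 3 lowest of each list; levels were not ranked between genes. Alternatives were centring on array medians, the deposited values, centring on 20 eye and antennal identity genes, 2 filters, the mean of probe sets, and folds of 1.5 and 3. The counting was tested on simulated data. Gene positions in the Release 6 table served only to find overlapping and neighbouring genes; sequences were not used here. Python 3.11.15, NumPy 2.4.6, pandas 2.3.3 and matplotlib 3.10.9 were used.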

Additional observations from a re-analysis of the deposited data

How the results depend on the processing

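No paired analysis was possible because each group has 1 array and no result comes from a test; leaving out a replicate was not possible for the same reason. Removing the filter or making it stricter could not change the members' values, because all 69 passed each filter. Averaging probe sets could change only mRpL47 and mRpS11, each read by a pair of probe sets. Under these settings no median of the members moved by more than 0.083 (the SD over members of Sras mutant 1 minus Sras mutant 2). No 2-fold count of members moved either. Counts over all genes did move, for example from 727 to 463 genes 2-fold higher in the scrib mutant than in Ras under the stricter filter. Scaling mattered most. With each array centred on its median, the members' median was 0.18 (Sras mutant 1), 0.019 (Sras mutant 2) and 0.46 (scrib mutant) against Ras, and 0.26, 0.13 and 0.55 against the WT control, where 7 members were 2-fold apart in the scrib mutant (26.9% of genes). In the deposited values the medians against the WT control were 0.17, 0.047 and 0.40. Centring on 20 eye and antennal identity genes gave −0.55, −0.70 and 1.28 against Ras (1, 3 and 60 members 2-fold apart, and 18.6%, 20.5% and 60.5% of genes), −0.75, −0.87 and 1.10 against the WT control (1, 17 and 43, and 28.3%, 31% and 46.3%), −0.16 for Ras against the WT control, and −1.81 and −1.94 for Sras mutants 1 and 2 against the scrib mutant (69 each, and 88.3% and 88.4%). This last scaling moved the median of all genes to −0.56, −0.59 and 1.03 against Ras, and some identity genes were themselves far lower in the scrib mutant, so it is not neutral. Relative to the median of all genes, the members' median in the scrib mutant against Ras was 0.18, and 0.29, 0.29 and 0.26 under median centring, deposited values and identity centring. At 1.5-fold the members counted were 1 for Sras mutant 2 and 9 for the scrib mutant against Ras, 12 for the scrib mutant against the WT control, and 5 and 12 for Sras mutants 1 and 2 against the scrib mutant. At 3-fold, 0 members passed in any comparison. Of 39 differences of single members of at least 1.5-fold, 21 moved by more than 0.083 under median centring, 5 in the deposited values and 39 under identity centring, and none of these 39 changed sign. Smaller ones did: under identity centring 0 members lay above Ras in either Sras array and 69 did in the scrib mutant. The causes were not tested. With 1 array per group, array noise was not measured.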

Other observations

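Further proteins of the ribosome, mRpS10 and mRpL53, could be read only through shared probe sets. The probe set of mRpS10 and CG34316 was at 10.84 in Sras mutant 1, 10.65 in Sras mutant 2, 10.74 in the scrib mutant, 10.62 in Ras and 10.63 in the WT control. That of mRpL53 and CG33155 was at 10.67, 10.56, 10.26, 10.94 and 10.88 in the same order, so the scrib mutant was its lowest array (−0.68 from Ras), as it was for mRpL44 alone among the single-gene members. Which of its genes the signal comes from was not tested.

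Many members lie within or against other genes: 41 of 69 overlap another gene in the Release 6 table, and 0 lie next to another member. mRpL28 overlaps Gmd, an enzyme of fucose synthesis, which was −0.15 and −0.10 from Ras in Sras mutants 1 and 2 and −0.16 in the scrib mutant, where mRpL28 was at 1.499. mRpS21 overlaps CG8870, which was 0.19 and 0.40 above Ras in Sras mutants 1 and 2, where mRpS21 was at −0.44 and −0.68, and 1.16 above Ras in the scrib mutant, where mRpS21 was at 0.46. CG8870 itself was dim, at 6.78 in the scrib mutant and 5.61 in Ras, which is under the filter value. Against the scrib mutant CG8870 was −0.98 in Sras mutant 1 and −0.76 in Sras mutant 2, beside −0.91 and −1.15 for mRpS21, and whether its transcripts reach the mRpS21 probe set was not tested. Among other members high in the scrib mutant, mRpL39 overlaps Zip71B, mRpL1 overlaps nac, mRpS2 overlaps CG11927 and mRpS23 overlaps Polr2C, whereas mRpL21, mRpL38, mRpS11 and mRpS26 overlap no other gene there. For mRpL47 and mRpS11, each read by a pair of probe sets, both probe sets had the same sign against Ras in each mutant array.

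Some nuclear-encoded respiratory chain genes shared the pattern of mRpS21, with both Sras mutants below Ras and the scrib mutant above it. That pattern was held by 7.49% of genes kept. Of the 49 respiratory chain genes kept, 30 lay below Ras in the scrib mutant, and the list's median there was −0.08. ND-B14.5A was −0.68 and −0.92 from Ras in Sras mutants 1 and 2 and 0.13 in the scrib mutant. ND-B14.7 was −0.40 and −0.57, and 0.15 in the scrib mutant. ND-B14.5B was −0.25 and −0.49, and 0.55 in the scrib mutant. These genes were picked after their values were seen. How many of the 49 hold the pattern was not counted, so no excess over the share of genes kept is read.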
